A study of Sus scrofa with 3 samples.

Results

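miR-34b and miR-449a belong to the family of miR-34 and miR-449, miRNAs that share the seed of their 5p arm. Small RNA reads of both arms of miR-34b and miR-449a were compared between 3 porcine skeletal muscles. The psoas major muscle (PMM) is the intermediate fiber type of the study, the longissimus dorsi muscle (LDM) the white type, and the peroneal longus (PL, "peroneal longu" in the labels) the red type. All animals were female pigs of the Landrace breed aged 210 days, with no treatment or genotype that differs between the muscles, and there was 1 library per muscle. The members were selected on the names of the precursors of other mammals given in the table of conserved miRNAs, with their reads in these libraries already known. All entries whose most common precursor name was miR-34b or miR-449a were taken, which gave 5 of the 152 entries and, with identical sequences merged, 4 of 145 unique miRNAs. These 4 are miR-34b-3p, miR-34b-5p, miR-449a-3p, and miR-449a-5p, and each of them had at least 3 reads summed over the libraries, as did 108 of the unique miRNAs.

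The design sets limits on every difference given here. There are no replicates, so the spread between animals cannot be estimated, no p-value is given, and the intervals cover counting error only. RNA of 3 pigs was pooled for PL, and for PMM and LDM pooling is not stated, only that the same animals were used. PMM and LDM reads were taken from earlier work of the authors and PL was sequenced later, so the sequencing batch and the muscle cannot be told apart in any comparison with PL. Libraries hold 18.46 M raw reads in PMM, 16.62 M in LDM, and 9.17 M in PL, and every level in RPM is the number of reads per 1 M of those raw reads. Of the list of muscle miRNAs (miR-1, miR-133a, miR-133b, miR-206, miR-208a, miR-208b, miR-499, and miR-486), 2 of the 8 names were among the conserved miRNAs, with summed levels of 51.1 RPM in PMM, 81.4 RPM in LDM, and 18.8 RPM in PL. Most of that list could thus not be checked in this table. Of its conserved entries, miR-1-3p, specific to heart and skeletal muscle, had the most reads over the libraries (892 in PMM, 1318 in LDM, and 44 in PL). miR-1-5p had 35 in PMM, 34 in LDM, and 7 in PL. Reads counted with the known porcine miRNAs are not included in these values or in the summed levels. From those known miRNAs, the paper reports miR-1 as abundant and enriched in LDM. How much miR-1 a muscle holds can thus not be read from these entries. miR-208a-3p, encoded in a myosin heavy chain gene of the heart, had 13 reads in PMM, 1 in LDM, and 118 in PL. In whole muscle, fewer cells of a type and less RNA per cell cannot be told apart.

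A miRNA guides its protein complex to transcripts by its seed, the bases at positions 2 to 8, so that miRNAs with the same seed are grouped as a family with largely shared targets. In mammals miR-34b is processed from a transcript it shares with miR-34c and is induced by the tumor suppressor p53, while in human and mouse miR-449a lies in an intron of the gene CDC20B. Both are best known from multiciliated epithelia such as those of the airway and oviduct and from the testis, where in mice they act redundantly in the formation of cilia and sperm. They are not counted among the muscle-specific miRNAs.

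The 4 mature sequences carry the comparison, since they show which arm holds the family seed. They are printed 5' to 3' as the table lists them, with T for U and with the seed at positions 2 to 8 in capitals.
miR-34b-5p: aGGCAGTGtaattagctgattgt
miR-449a-5p: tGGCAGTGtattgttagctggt
miR-34b-3p: aATCACTAactccactgccatc
miR-449a-3p: tCAGCTAAcatgcaactgctgtt

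The 5p arms of miR-34b and miR-449a had the same seed, GGCAGTG, and were identical from position 2 to 10 over 9 bases. No other of the 145 unique miRNAs had this seed at positions 2 to 8, and 1.38% of them (the same 2 sequences) held these letters on the listed strand anywhere. In contrast, the 3p arms had seeds of their own, ATCACTA for miR-34b-3p and CAGCTAA for miR-449a-3p, and neither was shared with another miRNA of the table. The longest run shared by the 3p arms was CTAAC, at positions 6 to 10 of miR-34b-3p and 5 to 9 of miR-449a-3p. Thus miR-34b-3p and miR-449a-3p are members by precursor, and not by seed. miR-34a, miR-34c, miR-449b, and miR-449c were not named by any conserved entry, and the known porcine miRNAs were not analysed here.

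miR-34b is listed on chromosome 9 of the pig assembly Sscrofa10.2, on the minus strand from 44167411 to 44167516, which is 106 bases for a listed hairpin of 84 nt. Its 2 entries share this position but give different hairpins. The hairpin of the 3p entry holds both mature arms exactly and is shown, with the arms in capitals, because it carries the miRNA with the most reads.
miR-34b hairpin: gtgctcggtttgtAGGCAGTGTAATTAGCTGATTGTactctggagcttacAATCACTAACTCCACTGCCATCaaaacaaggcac

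In the hairpin of the 5p entry, miR-34b-3p differs by G9A and T10C (hairpin base, then the position counted from 1 at the 5' end of the mature miRNA, then the base listed for the miRNA), which are outside its seed positions 2 to 8. The 3p arm contains the reverse complement of the family seed at positions 13 to 19, shown in capitals in aatcactaactcCACTGCCatc. RNAfold gave a minimum free energy of -31.4 kcal/mol for the hairpin of the 3p entry and -36.0 kcal/mol for that of the 5p entry, and all 7 seed bases of the 5p arm were paired in both. In the RefSeq annotation of another assembly, Sscrofa11.1, the gene of the partner miRNA, MIR34C-1, lies within the spans of BTG4, a gene of the antiproliferative BTG family, and of C9H11orf88.

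miR-449a is listed at 2 positions, which are chromosome 15 from 36468118 to 36468206 and an unplaced scaffold from 238131 to 238219, both on the minus strand. CDC20B is on chromosome 16 in the RefSeq annotation of Sscrofa11.1, and this difference from the listed chromosome was not resolved here. The 5p arm has an identical sequence and identical reads at both, so it was counted once. The 3p arm is given only for chromosome 15, and its listed sequence is not found exactly in any listed hairpin. It differs by A21G and C23T from the 88 nt hairpin and by C1T, C21G, and C23T from the 91 nt hairpin of that position. The 88 nt hairpin is shown with the windows of the arms in capitals, for comparison with that of miR-34b.
miR-449a hairpin: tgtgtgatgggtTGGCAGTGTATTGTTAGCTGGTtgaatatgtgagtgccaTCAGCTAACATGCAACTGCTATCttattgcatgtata

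Its minimum free energy was -36.4 kcal/mol, with 20 base pairs between the arms. The 91 nt hairpin had 19 pairs and -47.3 kcal/mol, and the hairpins of miR-34b had 18 pairs (5p entry) and 16 pairs (3p entry).

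miR-34b-3p had by far the most reads of the members. It had 278 reads in PMM, 54 reads in LDM, and 0 reads in PL. These are 15.1 RPM in PMM (exact 95% Poisson interval 13.3 to 16.9), 3.25 RPM in LDM (2.44 to 4.24), and 0 RPM in PL (interval up to 0.402). Its level in PMM was 4.64-fold that in LDM (exact 95% interval 3.45 to 6.32), and the intervals of the libraries do not overlap. With PL set at a floor of 3 reads (0.327 RPM), a fixed choice for libraries at 0, its level was 46.0-fold that of PL in PMM and 9.93-fold in LDM. The exact 95% interval of the ratio, which also covers the counting error in PMM and LDM, had a lower end of 37.2-fold for PMM over PL and 7.80-fold for LDM over PL. By reads it ranked 6th of the 145 unique conserved miRNAs in PMM and 16th in LDM. These conserved miRNAs hold a small part of each library, in PMM 16286 reads of 18.46 M raw reads. The known porcine miRNAs were not ranked, so this is not a rank among all miRNAs of the muscle. miR-26b-5p alone made up most conserved reads of every library, and without it miR-34b-3p made up 4.57% of the conserved reads in PMM and 1.17% in LDM.

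miR-34b-5p, the arm with the family seed, had the same order of libraries at a lower level. It had 24 reads in PMM (1.30 RPM, 0.833 to 1.93), 7 reads in LDM (0.421 RPM, 0.169 to 0.868), and 0 reads in PL. Its level in PMM was 3.09-fold that in LDM, with an interval of 1.29 to 8.48, which includes ratios below 1.5. The exact interval of its ratio had a lower end of 2.99-fold for PMM over PL and of 0.795-fold for LDM over PL, so a difference between LDM and PL was not detectable at this depth. With both arms summed, miR-34b had 302 reads in PMM and 61 in LDM, which correspond to 16.4 RPM for PMM and 3.67 RPM for LDM.

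miR-449a was near the limit of detection in every library. miR-449a-3p had 5 reads in PMM (0.271 RPM, 0.0879 to 0.632), 2 in LDM (0.120 RPM, 0.0146 to 0.435), and 0 in PL. miR-449a-5p had 4 reads in PMM (0.217 RPM, 0.0590 to 0.555), 3 in LDM (0.181 RPM, 0.0372 to 0.528), and 2 in PL (0.218 RPM, 0.0264 to 0.788). All intervals of miR-449a overlap between the libraries. Its summed arms were 1.62-fold higher in PMM than in LDM, with an interval of 0.488 to 6.16. This range includes both equal levels and the 4.64-fold difference of miR-34b-3p. miR-449a-5p was the only member with reads in PL.

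**Figure D1:**
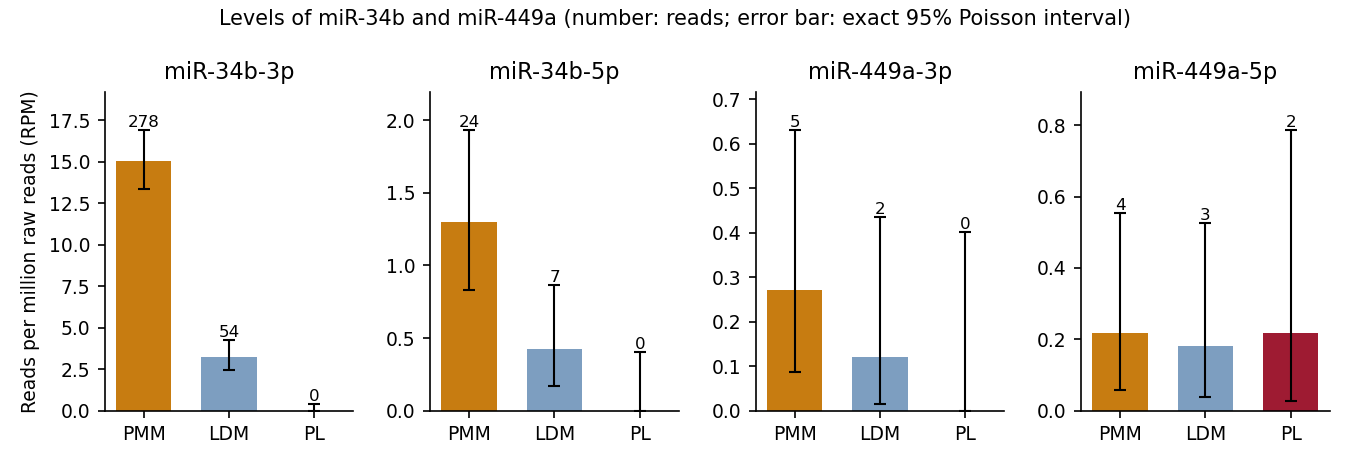
Levels of the 4 members in PMM, LDM, and PL, in RPM of the raw reads on a separate linear axis for each member. Bars are the level of 1 library, error bars the exact 95% Poisson interval (up to 0.402 RPM at 0 reads in PL), and numbers above them the reads. miR-34b-3p stands at 15.1 RPM in PMM, against 3.25 RPM in LDM and 0 reads in PL, while the intervals of miR-449a-5p overlap throughout.

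For comparison at equal raw reads, the reads in PMM and LDM were scaled to the raw reads of PL, as a description. On that scale the level of miR-34b-3p in PMM corresponds to 138 reads and its level in LDM to 29.8 reads, against 0 found in PL. For miR-34b-5p these values were 11.9 reads (PMM) and 3.86 reads (LDM), also against 0. For miR-449a-3p they were 2.48 and 1.10 reads. These values hold for raw reads as the total, whereas by summed conserved reads PL was the largest library (PMM had 16286, LDM 12463, and PL 23583). Without miR-26b-5p PL was the smallest (PMM had 6078, LDM 4630, and PL 2235). The part of depth in the reads of PL was not tested. Among 46 unique miRNAs with 30 or more reads in all libraries together, 4 (8.70%) had no read in PL. These were miR-34b-3p, miR-34b-5p, miR-219-3p, and miR-200c-3p. All of them were also higher in PMM than in LDM by RPM, with 7.76-fold for miR-219-3p (4.93 to 12.8) and 3.12-fold for miR-200c-3p (1.65 to 6.30). This order is partly set by the selection. With no read in PL, miR-219-3p, miR-200c-3p, and miR-34b-5p reached the minimum of 30 reads only through their reads in PMM. The shared order is thus a description and tests nothing. A higher level in PMM was common, as 42.6% of 108 conserved miRNAs were over 1.5-fold higher there than in LDM. At a minimum of 10 reads summed, the share was 52.1% of 71 miRNAs. The median ratio of PMM over LDM was 1.63-fold.

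The members were then set against all conserved miRNAs. As a description, a miRNA was counted as higher where its RPM ratio was over 1.5, with a library at 0 taken at the floor of 3 reads and no ratio where both libraries had 3 reads or fewer. In PMM over LDM, 3 of the 4 members (miR-34b-3p, miR-34b-5p, and miR-449a-3p) passed, against 46 of 108 miRNAs (42.6%). Only 83 of the 108 had a ratio and could pass, while all 4 members had one. The share of 42.6% is therefore lower than that among miRNAs with a ratio. With the lower end of the interval in place of the ratio, 1 member (miR-34b-3p) and 12 of 108 (11.1%) passed. In PMM over PL both arms of miR-34b passed, against 32.4% of all, and both still passed by the lower end of the interval, against 17.6%. In LDM over PL only miR-34b-3p passed, against 22.2% of all, and it also passed by the lower end, against 13.9%. A ratio was present for 82 of the 108 in PMM over PL, and for all 4 members. In LDM over PL it was present for 74 of the 108 and for 2 of the 4 members. These values were known when the members were chosen, so the counts describe the members and test nothing.

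The ratios also have to be read against their median over the table, which depends on the library totals. In PMM over LDM the median log2 ratio was 0.71 over the 83 miRNAs with a ratio, and 1.40 over the 4 members. The log2 ratio of miR-34b-3p was 2.21, which ranked 7th of 83, with that median well below it. Relative to it, miR-34b-5p lies 0.92 and miR-449a-3p 0.46 higher, while miR-449a-5p lies below it at -0.44. In PMM over PL the median over all was 0.10, and miR-34b-3p ranked 1st of 82 with 5.52, computed with PL at 3 reads. In LDM over PL the median was -0.44, and miR-34b-3p ranked 3rd of 74 with 3.31, also with PL at 3 reads.

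**Figure D2:**
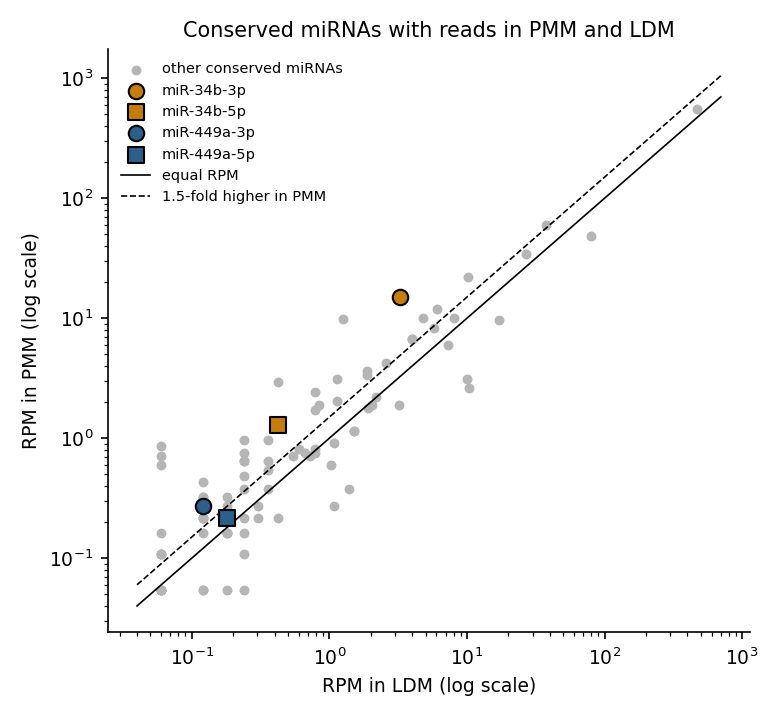
RPM in PMM against RPM in LDM, both on log scales, for the conserved miRNAs with reads in both libraries. Grey points are the other miRNAs, the solid line marks equal RPM, and the dashed line a 1.5-fold higher RPM in PMM. miR-34b-3p lies above the dashed line (15.1 RPM in PMM, against 3.25 RPM in LDM) and miR-449a-5p below it.

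The arm use of a precursor compares reads within a library and does not depend on its total. Most miRNA duplexes load mainly one arm into the complex, and the other is degraded. For miR-34b, 92.1% of the reads were on the 3p arm in PMM (278 of 302, exact 95% Clopper-Pearson interval 88.4% to 94.8%) and 88.5% in LDM (54 of 61, 77.8% to 95.3%). These intervals overlap, so a difference in arm use between PMM and LDM was not detectable at this depth. For miR-449a, 5 of 9 reads were on the 3p arm in PMM, 2 of 5 in LDM, and 0 of 2 in PL, and the interval in PMM ran from 21.2% to 86.3%. The interval of miR-34b in PMM lies above that of miR-449a in PMM, whereas in LDM, with 5 reads of miR-449a, they overlap. Among 14 precursors with both arms listed and at least 30 reads in PMM and in LDM, miR-34b had the fifth highest share on the 3p arm in PMM, and 8 of the 14 had more reads on the 3p arm there.

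As a result, few reads of the members carried the family seed. In PMM these were 28 of the 311 reads of the 4 members (exact 95% interval 6.07% to 12.7%), in LDM 10 of 66 (15.2%, 7.51% to 26.1%), and in PL both of the 2 reads. The summed 5p arms were at 1.52 RPM in PMM (1.01 to 2.19), 0.602 RPM in LDM (0.289 to 1.11), and 0.218 RPM in PL (0.0264 to 0.788). PMM exceeded LDM in this sum by 2.52-fold (1.19 to 5.82) and PL by 6.95-fold (1.75 to 60.2). Between LDM and PL the interval of 0.588 to 25.9 includes equal levels. The interval of the sum in PMM over LDM overlaps that of miR-34b-3p.

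**Figure D3:**
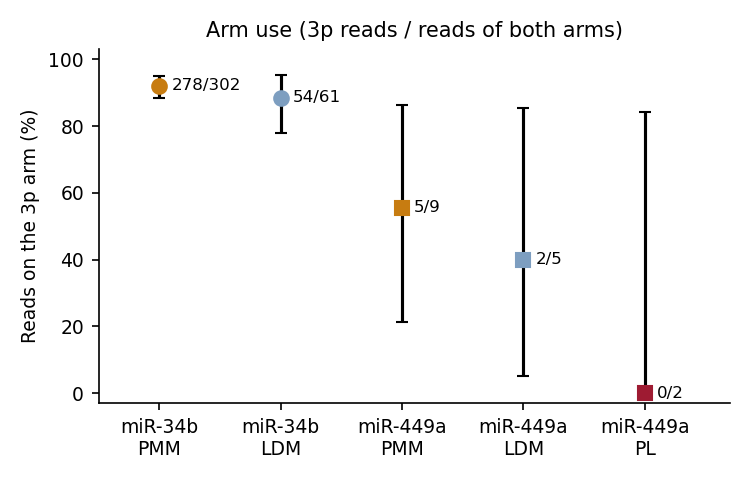
Share of the reads of each precursor on its 3p arm, in percent, by library. Points are the share in 1 library, error bars the exact 95% Clopper-Pearson interval, and labels the reads on the 3p arm over the reads of both arms. miR-34b has no point for PL, where it had 0 reads. Its shares of 92.1% in PMM and 88.5% in LDM have overlapping intervals, and those of miR-449a rest on 9 reads or fewer.

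The miRNAs with the pattern most like that of miR-34b-3p were taken as those with the smallest summed difference in the shares of RPM over the 3 libraries, among 23 others with at least 100 reads. miR-34b-3p had 82.3% of its summed RPM in PMM and 17.7% in LDM. The nearest was miR-219-3p, a miRNA known from the nervous system, with 88.6% in PMM and 11.4% in LDM and a summed difference of 12.7 percentage points. miR-485-3p (43.4 points), miR-154b-5p (50.5 points), miR-716a-3p (58.9 points), and miR-330-3p (66.1 points) followed at a distance, and each of them had reads in PL. With 3 libraries and 1 of them from another batch, this likeness is a description. Of the members, miR-34b-5p had 75.5% of its RPM in PMM and 24.5% in LDM, and miR-449a-5p was spread evenly, as PMM held 35.2%, LDM 29.3%, and PL 35.4%.

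**Figure D4:**
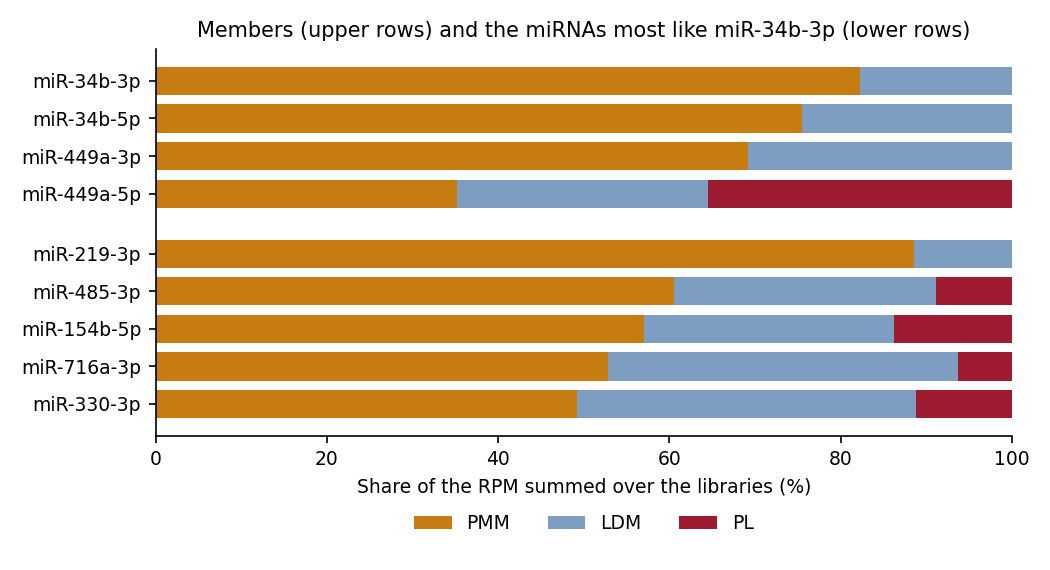
Share of each library in the RPM summed over PMM, LDM, and PL, in percent, for the 4 members (upper rows) and the 5 miRNAs most like miR-34b-3p (lower rows). Only miR-219-3p among the 5 has no part from PL, like miR-34b-3p. miR-449a-5p, which rests on 9 reads, has nearly equal parts.

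Markers of other cell types were then set beside miR-34b. Only list names among the conserved miRNAs could be used, and the other names were not analysed here. Of 8 epithelial miRNAs, 4 were among the conserved miRNAs, with summed levels of 4.50 RPM in PMM, 2.23 RPM in LDM, and 0.981 RPM in PL. Of these 4, 2 were over 1.5-fold higher in PMM than in LDM, against 42.6% of all 108 miRNAs, of which 83 had a ratio. Their median log2 ratio of PMM over LDM was 0.74, close to the 0.71 over all miRNAs with a ratio. Within that list, miR-200c-3p, a member of the miR-200 family that maintains the epithelial state, had 45 reads in PMM, 13 in LDM, and 0 in PL. miR-141-3p of the same cluster had 18 reads in PMM, 6 in LDM, and 4 in PL. In contrast, miR-200b-3p was at 0.813 RPM in PMM, 0.782 RPM in LDM, and 0.545 RPM in PL, and miR-375-3p had 5 reads in PMM, 5 in LDM, and 0 in PL. Of 5 neural miRNAs, 2 (miR-219 and miR-138) were among the conserved miRNAs. They had 189 summed reads in PMM, 21 in LDM, and 0 in PL, nearly all from miR-219-3p. Of their 3 sequences, 2 were over 1.5-fold higher in PMM than in LDM, against 42.6% of all 108 miRNAs. Besides miR-219-3p this was miR-138-5p, with 6 reads in PMM and 0 in LDM, which was set at the floor of 3 reads. miR-138-3p, with 2 reads in PMM and 0 in LDM, had no ratio. A higher level in PMM does not hold for the whole neural list, since the paper reports miR-128, another of its names, as enriched in PL. Of 5 blood cell miRNAs only miR-223, known from myeloid cells, was among the conserved miRNAs. Its 3p arm, miR-223-3p, had 41 reads in PMM, 36 in LDM, and 14 in PL, at 2.22 RPM, 2.17 RPM, and 1.53 RPM. The part of other cell types in the levels of miR-34b was not tested. Of 10 miRNAs linked to p53, only miR-34b and miR-194 were among the conserved miRNAs, and miR-194-5p had 1 read in PL and 0 in PMM and LDM. Thus no other induced miRNA of that pathway could be set beside miR-34b among the conserved miRNAs. The paper reports miR-143, another name of this list, among the most abundant miRNAs of every library, and its reads were not analysed here.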

How the data were processed

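The authors filtered reads by adapter, length, and quality, and used BLAST to match them to mammalian miRNA precursors from miRBase and to the pig assembly Sscrofa10.2. They deposited whole read counts per miRNA and library without normalization. A mark in place of a number was read as 0 (118 of 456 cells). Identical mature sequences were merged with the highest value per library. RPM used the raw reads stated for each library (rounded values), since the table is a small part of each. Whether further isomiRs of a miRNA were added to its reads is not given in the sources used here, and reads were not counted by molecule.

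Levels have exact Poisson intervals, shares Clopper-Pearson intervals, and ratios exact binomial intervals, all at 95%. The interval and ratio functions were tested on simulated reads (50 data sets per comparison). The study's tests between libraries were not applied, because the members and marker lists were chosen with earlier results of these data known. Named miRNAs are the members, the 5 most like miR-34b-3p, and list members with at least 10 reads. miR-375-3p reaches 10 reads, miR-194-5p and the arms of miR-138 are named to complete a count, and miR-128 and miR-143 are list names reported by the study. Hairpins were folded with RNAfold 2.7.2. Python 3.11.15, numpy 2.4.6, scipy 1.17.1, and matplotlib 3.10.9 were used. The alternatives used different totals (conserved reads summed with and without the most abundant miRNA, size factors, and TMM), other minimums of reads and folds, other ways of merging, and another measure of likeness.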

Additional observations from a re-analysis of the deposited data

How the results depend on the processing

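No paired analysis was possible because there was 1 library per muscle, and leaving out a replicate was likewise not possible. The log2 ratio of miR-34b-3p in PMM over LDM (2.21) was 1.73 with trimmed mean of M values (TMM), below its counting interval but over 1.5-fold, while that in PMM over PL with PL at 3 reads (5.52) was 7.07 with the summed conserved reads and 5.09 without miR-26b-5p. In LDM over PL (3.31), TMM gave 3.98 and the sum of conserved reads 5.09. Its RPM with the summed conserved reads as the total were 17070 in PMM and 4333 in LDM, and without miR-26b-5p 45739 and 11663. This is mostly a change of scale, and the log2 ratio in PMM over LDM was 1.98 and 1.97 with these totals. With the summed reads the log2 ratios of all miRNAs shift by -0.23 in PMM over LDM, 1.54 in PMM over PL, and 1.78 in LDM over PL, and with TMM by -0.48, 0.19, and 0.67. At the depth of PL its reads would be 138 (PMM) and 29.8 (LDM). miRNAs over 1.5-fold higher in PMM than in LDM (46) numbered 29 after scaling by median-of-ratios, 25 by TMM, 27 at a 2-fold threshold, and 12 by the lower end of the interval. Those in PMM over PL (35) were 58 with the summed conserved reads and 19 by the lower end, and those in LDM over PL (24) were 48 and 15. With the summed reads, 4 members passed in PMM over PL, and miR-34b-5p also passed in LDM over PL, as it did with TMM and size factors. Of the 5 miRNAs most like miR-34b-3p, 3 stayed with the summed reads and 1 (miR-219-3p) with a minimum of 30 reads, where miR-200c-3p and miR-34b-5p came next. The other 37 values of these results under an alternative stayed within their counting interval or 1.5 times the value, and no difference over 1.5-fold changed direction. Below that size, miR-449a changed sign. In PMM over PL, miR-449a-3p (-0.27, with PL at 3 reads) was 1.27 with the summed reads, and miR-449a-5p (-0.01) was 1.53 with them and 0.18 with TMM. The negative value of miR-449a-3p comes from the floor and is not a lower level in PMM. It had 5 reads in PMM (0.271 RPM) and 0 in PL, where the floor is 0.327 RPM. In PMM over LDM, miR-449a-5p (0.26) was -0.07 with size factors and -0.22 with TMM. The low reads of miR-449a limit every statement on it.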
